A study of Caenorhabditis elegans with 5 samples.

Results

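The genes described here encode the UDP-glycosyltransferases of *Caenorhabditis elegans*, the family whose symbols run from *ugt-1* to *ugt-67*. A gene was a member where the array annotation gave its probe set a single symbol made of ugt, a hyphen and a number, and the probe set with the highest mean signal over the 5 arrays was used where a gene had several. This gave 64 genes, read by 68 probe sets, of 17118 genes named on the array. Expression was measured in whole wild-type worms of the Bristol N2 strain at mixed stages, with 1 Affymetrix array for each of 5 groups of 100000 worms. The worms were cultured in CeMM, a liquid medium of defined chemical makeup, over 10 days at 20 °C, and then frozen in liquid nitrogen. The space flight group had grown in microgravity, the clinorotation group in a rotating device that keeps turning the gravity vector, and the hypergravity group at a raised gravity that the labels give both as 3 G and as 10 G. The ground controls, both at 1 G, were a culture at the operation site and a culture at Tsukuba space center. Each treatment thus rests on 1 pooled culture without a replicate, and the SD given for the controls is that of their 2 arrays. In RNA from whole worms, fewer cells of a type and less RNA per cell cannot be told apart.

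UDP-glycosyltransferases are membrane enzymes of the endoplasmic reticulum that move the sugar of a UDP-sugar donor onto small fat-soluble molecules. The product dissolves better in water and can be carried out of the cell by ABC transporters, so the enzymes form the conjugating step of detoxification, after oxidation by cytochromes P450 and beside the glutathione S-transferases. In *C. elegans* the family is large, much of it lies in rows of neighbouring genes, the sugar is mostly glucose, and many members are induced by xenobiotics. The substrate of a single member is mostly not known, so members are described here by their signals and their neighbours.

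The family was measured in part. Array signals, in arbitrary units, were quantile scaled, and values under 24.9, which is the 40th percentile over all probe sets and arrays, were raised to that floor. Of the 64 genes, 50 had a mean log2 signal above the floor, and 43 of these were above it on every array. Of the other 14, the genes *ugt-3*, *ugt-7*, *ugt-10*, *ugt-30*, *ugt-35*, *ugt-38*, *ugt-42*, *ugt-43*, *ugt-56*, *ugt-59* and *ugt-67* were at the floor on all 5 arrays, and *ugt-45*, *ugt-53* and *ugt-57* were above it on some arrays only. The counts below concern the 50 genes, and 7 of them passed although they were at the floor on some array. Probe sets of 12 genes, all among the 50, may bind several transcripts. Since every array differs in brightness, the position of a gene is relative to all genes: without scaling the median of all genes lay 0.62 (log2) above the control mean in space flight, 0.29 under clinorotation and 0.39 in hypergravity.

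**Figure D1:**
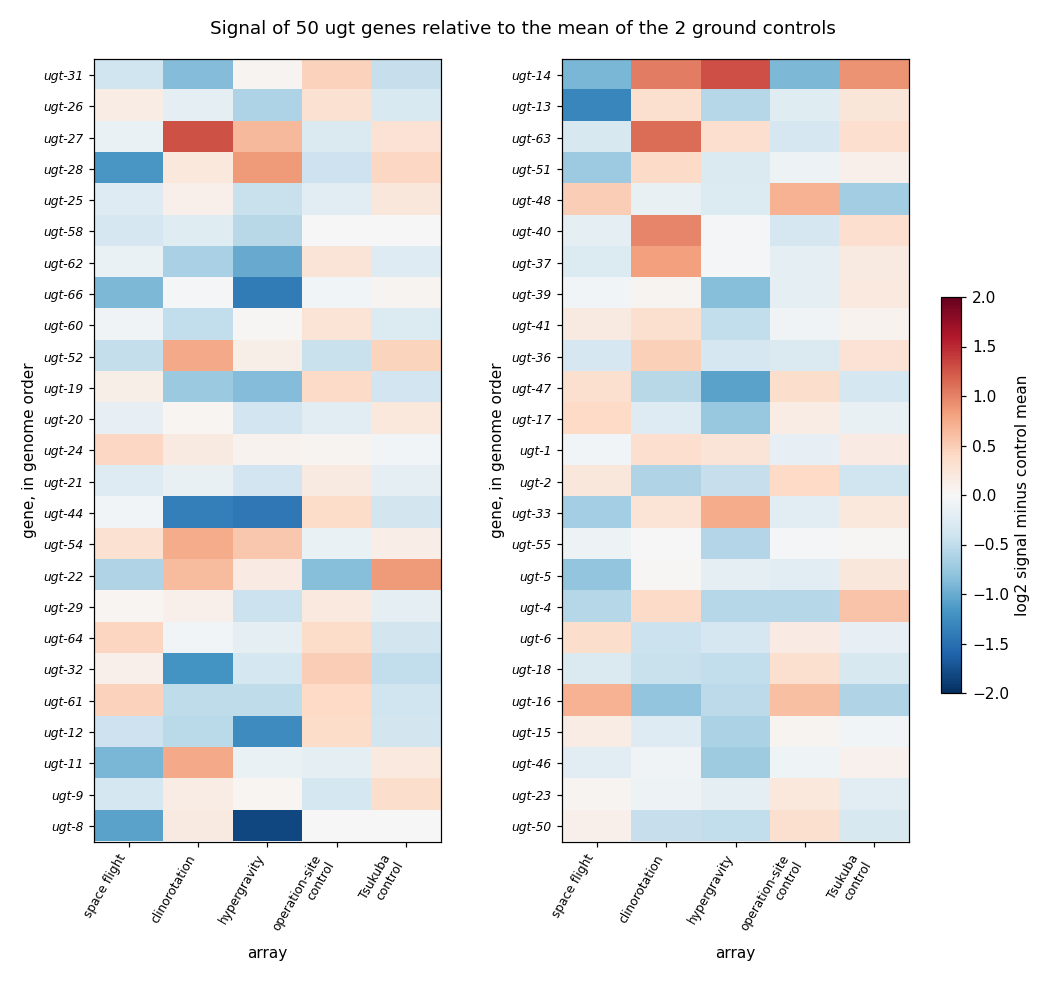
Log2 signal of the 50 ugt genes above the floor on each of the 5 arrays, minus the mean of the 2 ground controls, with genes in genome order. The hypergravity column holds the lowest value, that of *ugt-8* at -1.81, and 27 of its 50 genes lie below both controls (13 without scaling).

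The makeup of the cultures stands beside every comparison. The sperm markers, 25 of 27 above the floor and *spe-9* at it on all arrays, summed to 56213 in space flight, 11726 under clinorotation and 17829 in hypergravity, against 55589 at the operation site and 15141 at Tsukuba. Space flight was at the level of the operation site, and clinorotation and hypergravity were nearer to Tsukuba. Intestine markers, from the tissue in which many ugt genes are active, summed to 24559 in space flight, 22201 under clinorotation and 27628 in hypergravity, against 25514 at the operation site and 23146 at Tsukuba. Such sums follow the brightest genes. The yolk protein gene *vit-6* alone was at 8025 in hypergravity, against 5271 at the operation site and 4250.2 at Tsukuba. Of the 13 intestine markers above the floor, 6 were below both controls in hypergravity and 4 above. Of the 14 intestine markers on the array none was at the floor on all arrays. The part of either in the ugt signals was not tested.

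Hypergravity was set against the ground controls to ask which genes differ when gravity is raised, and the median of the ugt family lay below that of all genes there. Of the 50 genes, 27 lay below both controls, where 32.7% of all 10075 genes above the floor did. Only 8 lay above both, where 33.3% of all genes did. The median difference from the control mean was -0.38 (log2) for the family and 0.0013 for all genes. It was -0.45 against the operation-site control alone and -0.33 against the Tsukuba control alone. Without scaling the family's median was -0.0278, with 13 genes below both controls and 15 above, where 9.84% and 66.4% of all genes lay there. Among the 43 genes above the floor on every array, 25 lay below both controls and 8 above both.

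**Figure D2:**
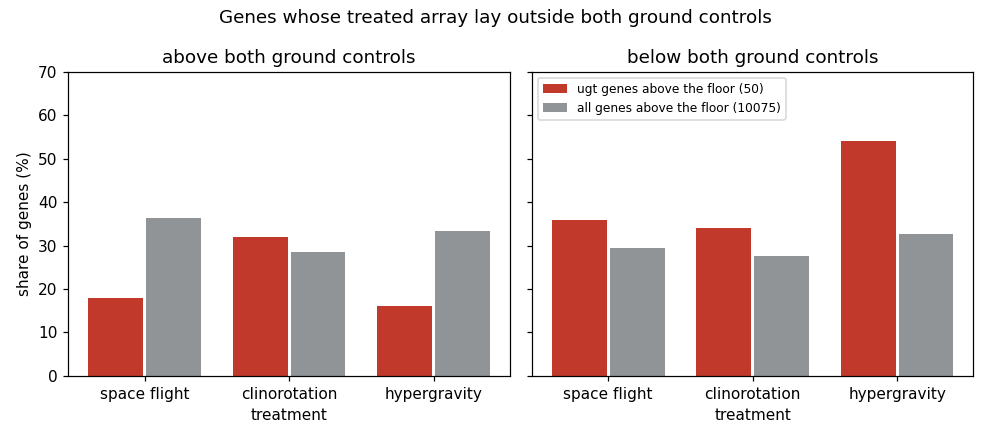
Share of genes (%) whose treated array lay above (left) or below (right) both ground controls, for the 50 ugt genes above the floor and for all 10075 genes above it. In hypergravity the ugt share below both controls is 54% and that of all genes 32.7%. Without scaling the ugt share below both is 26%, against 9.84% of all genes.

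The genes farthest below were *ugt-8*, *ugt-66* and *ugt-44*, the 3 of 50 that were at least 2-fold below both controls in hypergravity, where 0.665% of all genes were. *ugt-8* read 107 in space flight, 254 under clinorotation and 63.7 in hypergravity, against 227 at the operation site and 222 at Tsukuba. Its controls lay next to each other, with an SD of 0.021 (log2, n = 2), and the hypergravity array was 3.48-fold below the nearer of them. *ugt-66* read 241 in space flight, 444 under clinorotation and 171 in hypergravity, against 433 at the operation site and 467 at Tsukuba. It was 2.53-fold below the nearer control in hypergravity, with a control SD of 0.078. *ugt-44* read 298 in space flight, 121 under clinorotation and 115 in hypergravity, against 399 at the operation site and 241 at Tsukuba, so that clinorotation and hypergravity were both low and space flight lay between the controls. In limma, fitted across all genes, the difference of hypergravity from the control mean was -1.81 ± 0.30 (log2, SE) for *ugt-8*, -1.39 ± 0.24 for *ugt-66* and -1.43 ± 0.44 for *ugt-44*, each with an adjusted p of 0.949. Without scaling 1 of 50, *ugt-8*, was at least 2-fold below both controls, at -1.33 (log2) from the nearer, with *ugt-66* at -0.97 and *ugt-44* at -0.59. Against the operation-site control alone 8 of 50 were at least 2-fold below, and against Tsukuba alone 5. No share of all genes is given for these counts, so they are not read as a result about the family.

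Next farthest below in hypergravity were *ugt-12*, *ugt-62* and *ugt-47*. *ugt-12* read 482 in space flight, 443 under clinorotation and 269 in hypergravity, against 831 at the operation site and 499.6 at Tsukuba. It lay at -0.90 (log2) from the nearer control in hypergravity and less far below in the other treatments, where it was between the controls without scaling. *ugt-62* read 101 in hypergravity, against 241 at the operation site and 169 at Tsukuba, and *ugt-47* read 47.4 in hypergravity, against 126 at the operation site and 77.9 at Tsukuba. Both were below both controls under clinorotation too, with 129 for *ugt-62* and 67.3 for *ugt-47* under clinorotation, though without scaling these clinorotation values were between the controls. *ugt-17*, the neighbour of *ugt-47*, read 544 in space flight, 345 under clinorotation and 243 in hypergravity, against 456 at the operation site and 371 at Tsukuba, above both controls in space flight and below both in hypergravity, and below both under clinorotation except without scaling.

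A few genes were high in hypergravity, although at least 2-fold above both controls were 0 of 50, where 0.238% of all genes were. *ugt-33* read 56.6 in space flight, 109.5 under clinorotation and 152 in hypergravity, against 78.5 at the operation site and 105 at Tsukuba. *ugt-28* read 53.7 in space flight, 139.6 under clinorotation and 218 in hypergravity, against 90.8 at the operation site and 159.9 at Tsukuba. In both genes hypergravity was the highest array and space flight the lowest, with distances to the nearer control of 0.54 and -0.47 (log2) for *ugt-33* and of 0.45 and -0.76 for *ugt-28*. *ugt-14* read 45.9 in space flight, 176 under clinorotation and 212 in hypergravity, against 46.3 at the operation site and 162 at Tsukuba. Its controls differed 3.49-fold, space flight was next to the lower of them (between them without scaling), and hypergravity lay 0.39 above the higher. *ugt-1* read 279.9 in hypergravity, against 208 at the operation site and 262 at Tsukuba, 0.09 above the higher control.

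Space flight was compared with the ground controls to ask which genes differ after growth in microgravity. Above both controls lay 9 of 50 ugt genes, where 36.3% of all genes did. Below both lay 18 of 50, where 29.4% of all genes did. The family's median was -0.15 (log2) from the control mean, beside 0.03 for all genes. Without scaling it was 0.42, beside 0.62 for all genes, with 31 genes above both controls and 8 below, where 80.9% and 4.54% of all genes lay there. At least 2-fold below both controls were *ugt-8* and *ugt-13*, 2 of 50, where 0.516% of all genes were, and at least 2-fold above both were 0 of 50, where 0.149% of all genes were. Without scaling 0 of 50 were at least 2-fold below, with *ugt-8* at -0.37 and *ugt-13* at -0.44 (log2) from the nearer control.

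*ugt-13* read 309 in space flight, 957 under clinorotation and 515 in hypergravity, against 646 at the operation site and 909 at Tsukuba. Space flight was its lowest array, 2.09-fold below the nearer control, hypergravity was below both as well except without scaling, and clinorotation was next to the higher control. The values of *ugt-8* and *ugt-66* given above put space flight 2.08-fold and 1.8-fold below their nearer controls. *ugt-11* read 24.9 in space flight, 79.6 under clinorotation and 43.03 in hypergravity, against 41.2 at the operation site and 54.002 at Tsukuba. Its space flight array was at the floor, so the distance of -0.72 (log2) to the nearer control is set by the floor, and clinorotation was its highest array. *ugt-51* read 121 in space flight, 261 under clinorotation and 165 in hypergravity, against 186 at the operation site and 215 at Tsukuba. Here too space flight was lowest and clinorotation highest, and hypergravity, below both controls after scaling, was above both without it. For *ugt-13* the difference of space flight from the control mean in limma was -1.31 ± 0.31 (log2, SE), the smallest unadjusted p of the family in this comparison, with an adjusted p of 0.970.

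After scaling, the genes farthest above both controls in space flight were less distant than those below. This did not hold without scaling. Unscaled, *ugt-24* was at 238.9 in space flight, against 127.2 at the operation site and 105.9 at Tsukuba. The unscaled values of *ugt-13* were 402.8 in space flight, against 547.9 at the operation site and 742.4 at Tsukuba. *ugt-24* read 184 in space flight, 157 under clinorotation and 145 in hypergravity, against 144 at the operation site and 134 at Tsukuba. It was above both controls in every treatment, by 0.36 in space flight, 0.12 under clinorotation and 0.01 (log2) in hypergravity, the last lying between the controls under trimmed-mean scaling. *ugt-54* read 68.9 in space flight, 93.2 under clinorotation and 80.7 in hypergravity, against 50.9 at the operation site and 60.8 at Tsukuba, above both controls on all 3 treated arrays, with clinorotation the highest. *ugt-6* read 128 in space flight, 74.6 under clinorotation and 79.8 in hypergravity, against 113 at the operation site and 89.3 at Tsukuba, with space flight above both controls and the other treatments below both except without scaling. *ugt-41* read 853 in space flight, 944 under clinorotation and 536 in hypergravity, against 713 at the operation site and 793 at Tsukuba, with hypergravity below both controls except without scaling. *ugt-15* read 42.9 in space flight, 32.3 under clinorotation and 24.9 in hypergravity, against 40.1 at the operation site and 37.5 at Tsukuba, and its space flight value, 0.10 above the higher control, lay between the controls under trimmed-mean scaling. On the opposite side, *ugt-58* read 422 in space flight, 449 under clinorotation and 360.3 in hypergravity, against 526 at the operation site and 533 at Tsukuba. Its controls were within an SD of 0.013, and all 3 treated arrays were below them, though without scaling space flight and clinorotation were above both.

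**Figure D3:**
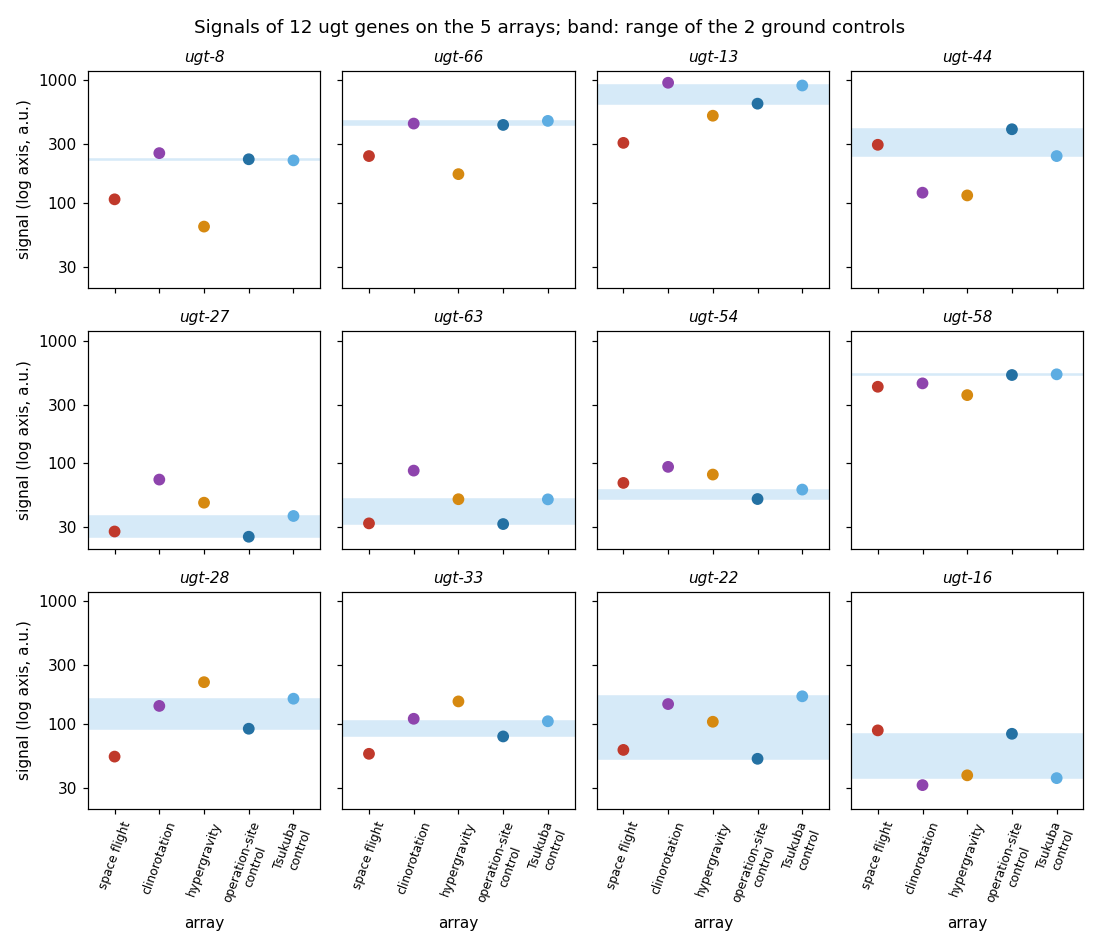
Scaled signals of 12 ugt genes on the 5 arrays (log axis, arbitrary units, 1 point per array), with the range of the 2 ground controls as a band. *ugt-8* and *ugt-66* are below the band in space flight and hypergravity, *ugt-27* and *ugt-63* are above it under clinorotation, and *ugt-22* and *ugt-16* have wide bands because their controls differ. Of *ugt-58*, the space flight and clinorotation values, below the band here, are above both controls without scaling.

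Under clinorotation, a ground model of microgravity, ugt genes lay on both sides of the controls. Above both controls lay 16 of 50 and below both 17, where 28.5% and 27.7% of all genes did, shares near those of the family. The family's median was 0.0075 (log2) from the control mean, beside 0.0057 for all genes. Without scaling 30 lay above both controls and 5 below, where 65.3% and 6.65% of all genes did. At least 2-fold outside both controls were 0 of 50 above, where 0.0893% of all genes were, and 0 below, where 0.0298% were. Without scaling 2 of 50 were at least 2-fold above both, *ugt-27* at 1.28 and *ugt-63* at 1.08 (log2) from the higher control. Against the operation-site control alone 6 were at least 2-fold above and 5 below, and against Tsukuba alone 0 and 0. No share of all genes is given for these counts, so they are not read as a result about the family. The controls themselves were at least 2-fold apart at 4.43% of all genes in one direction and 4.08% in the other. In limma 2 of the 50 had an unadjusted p under 0.05.

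Of the genes farthest above under clinorotation, only *ugt-27* came close to 2-fold after scaling. From the higher control *ugt-63* was 1.72-fold above, *ugt-40* 1.56-fold and *ugt-37* 1.55-fold. The operation-site values of *ugt-27* and *ugt-37* lay near the floor of 24.9. *ugt-27* read 27.6 in space flight, 73.4 under clinorotation and 47.5 in hypergravity, against 25.001 at the operation site and 36.96 at Tsukuba, 1.99-fold above the higher control under clinorotation. *ugt-63* read 32.2 in space flight, 86.9 under clinorotation and 50.7 in hypergravity, against 31.8 at the operation site and 50.6 at Tsukuba, with hypergravity at the level of the higher control. *ugt-40* read 84.6 under clinorotation, against 33.9 at the operation site and 54.2 at Tsukuba, and its neighbour *ugt-37* read 52.96 under clinorotation, against 26.6 at the operation site and 34.2 at Tsukuba. For these 4 genes clinorotation was the highest of the 5 arrays and the Tsukuba control was above the operation-site control. In limma *ugt-27* stood 1.27 ± 0.43 (log2, SE) from the mean of the controls, at an adjusted p of 1.

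Farthest below under clinorotation was *ugt-44*, 1.99-fold below the nearer control, with values given above. *ugt-32* read 88.9 in space flight, 36.04 under clinorotation and 64.8 in hypergravity, against 116 at the operation site and 58.7 at Tsukuba, where clinorotation alone was below both controls. *ugt-31* read 34.6 in space flight, 24.9 under clinorotation and 47.1 in hypergravity, against 62.2 at the operation site and 33.2 at Tsukuba, and its clinorotation array was at the floor. *ugt-19* read 50.2 in space flight, 27.7 under clinorotation and 25.5 in hypergravity, against 60.4 at the operation site and 35.7 at Tsukuba, below both controls under clinorotation and in hypergravity. In limma *ugt-44* differed from the control mean by -1.36 ± 0.44 (log2, SE), the smallest unadjusted p of the family under clinorotation, with an adjusted p of 1.

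At an adjusted p under 0.05 limma called 0 ugt genes and 0 of the 10075 genes tested, a background of 0% in each treatment. At an unadjusted p under 0.05 there were 3 ugt genes of 50 in space flight and 4 in hypergravity, where 1.42% and 2.46% of all genes had such a p, and the 2 under clinorotation stand against 0.318%. With 1 residual degree of freedom, the spread comes from the controls alone and is taken to hold for each treated array as well. The p-values thus rest on how the 2 control arrays differ over the genes, and not on how treated cultures vary. The 3 comparisons share the same controls. By chance alone 2.5 of 50 genes would have an unadjusted p under 0.05 in each comparison. The ugt counts at that threshold are therefore not read as a result about the family.

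The controls themselves were apart at some members. The operation site was at least 2-fold above Tsukuba for 2 of 50 genes and at least 2-fold below for 3, where 4.43% and 4.08% of all genes were, shares near the background for so few genes. The median difference was -0.03 (log2), beside 0.03 for all genes. *ugt-48* read 75.4 at the operation site and 28.7 at Tsukuba, a 2.63-fold difference, and *ugt-16* read 82.6 and 35.8 in the same order. On the other side *ugt-14*, given above, was followed by *ugt-22*, at 51.5 at the operation site and 167 at Tsukuba, and by *ugt-4*, at the floor at the operation site and at 55.2 at Tsukuba. *ugt-52* read 50.3 and 93.2 in that order, and *ugt-9* was at the floor at the operation site and read 40.1 at Tsukuba. Among genes higher at the operation site, *ugt-61* read 113.6 there and 64.8 at Tsukuba, and *ugt-2* read 178 and 102.

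The treated arrays were also placed by the control they lay nearer to. In space flight 40 of 50 ugt genes were nearer in log2 signal to the operation-site control than to Tsukuba, where 67.3% of all genes were. Under clinorotation 7 of 50 were, where 34.3% of all genes were, and in hypergravity 19, where 40.5% were. *ugt-16* read 88.04 in space flight, 31.4 under clinorotation and 37.8 in hypergravity, and *ugt-22* read 60.9, 145 and 104 on the same arrays, so that for both genes space flight was next to the operation site and clinorotation next to Tsukuba. The sperm markers above divide the arrays in the same way.

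When set directly against each other, space flight and clinorotation were compared with 1 array on each side and no test. Space flight was at least 2-fold below clinorotation at 12 of 50 ugt genes, where 5.32% of all genes were, and at least 2-fold above at 3, where 4.48% were. Against the operation-site control alone, space flight was at least 2-fold below at 2 of 50, where 1.18% of all genes were, and against Tsukuba alone at 8, where 5.9% were. Hypergravity was below clinorotation at 40 of 50 ugt genes, where 49% of all genes were, and at least 2-fold below at 2, *ugt-8* and *ugt-66*, where 1.16% were.

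By their order in the RefSeq annotation of the WBcel235 assembly, 35 of the 64 genes stood in 10 runs of neighbours, in which no more than 3 other coding genes separated a ugt gene from the next. The genes of a run did not follow a single pattern, and each run holds few genes. Over all genes above the floor, 29.4% were below both controls and 36.3% above in space flight. The shares were 27.7% and 28.5% under clinorotation, and 32.7% and 33.3% in hypergravity. The longest run held 8 genes in the order *ugt-12*, *ugt-11*, *ugt-9*, *ugt-10*, *ugt-67*, *ugt-8*, *ugt-14* and *ugt-13*, of which 6 were above the floor. In space flight 5 of these 6 were below both controls and none above, *ugt-14* and *ugt-12* by small distances that vanish without scaling. Under clinorotation 4 of the 6 were above both controls and *ugt-12* alone below (between them without scaling), and in hypergravity *ugt-12*, *ugt-8* and *ugt-13* were below, the last between them without scaling, and *ugt-14* alone above. The adjacent genes *ugt-8* and *ugt-14* lay on opposite sides in hypergravity, with *ugt-8* at -1.80 and *ugt-14* at 0.39 (log2) from the nearer control.

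A run of 6 genes held *ugt-40*, *ugt-37*, *ugt-38*, *ugt-39*, *ugt-41* and *ugt-36*, of which *ugt-38* was at the floor throughout. Clinorotation was above both controls in 4 of the 5 measured genes, *ugt-39* being the exception, and hypergravity in none. Over all genes 28.5% and 33.3% were above both. *ugt-39* read 181 in space flight, 197 under clinorotation and 105 in hypergravity, against 165 at the operation site and 217 at Tsukuba, with hypergravity at -0.65 (log2) from the nearer control. *ugt-36* read 43.3 under clinorotation, against 25.6 at the operation site and 38.4 at Tsukuba, and was at the floor in space flight and hypergravity, below both controls there except without scaling. In a run of 4, *ugt-26*, *ugt-27*, *ugt-28* and *ugt-25*, the outer genes *ugt-26* and *ugt-25* were below both controls in hypergravity, except without scaling, and the inner genes *ugt-27* and *ugt-28* above both. *ugt-26* read 53.01 in hypergravity, against 100.4 at the operation site and 66.5 at Tsukuba, and *ugt-25* read 286 in hypergravity, against 335 at the operation site and 455 at Tsukuba. A run of 3, *ugt-18*, *ugt-16* and *ugt-15*, was below both controls in all its genes under clinorotation, where 27.7% of all genes were. *ugt-18* read 71.9 under clinorotation, against 122 at the operation site and 78.4 at Tsukuba. Without scaling *ugt-18* and *ugt-16* lay between the controls. *ugt-39*, *ugt-36*, *ugt-26*, *ugt-25* and *ugt-18* were chosen after their values were seen, to complete these runs.

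**Figure D4:**
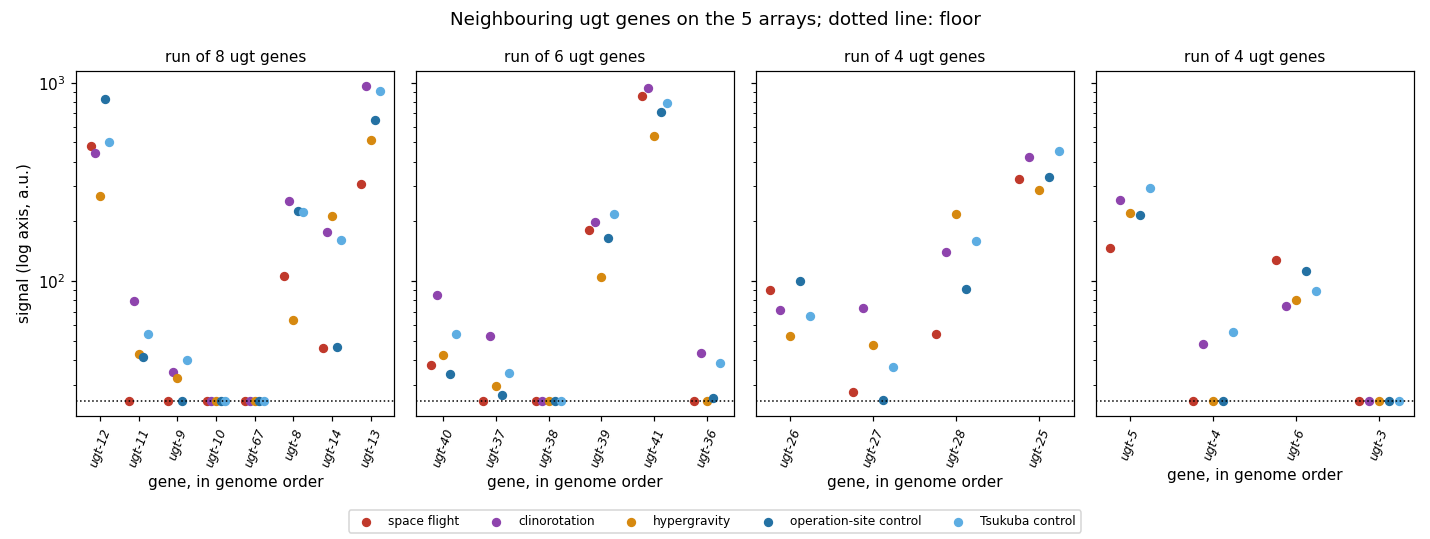
Scaled signals (log axis, arbitrary units) of the genes of the 4 longest runs of neighbouring ugt genes, with 1 point per array and the floor as a dotted line. Signals may be compared between arrays within a gene, not between genes. In the run of 8, space flight is the lowest array of *ugt-11* and *ugt-13* and hypergravity that of *ugt-12* and *ugt-8*.

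Other probe sets were read for some of the genes. Of *ugt-46*, whose used probe set read 191 in space flight, 212 under clinorotation and 135 in hypergravity, against 210.3 at the operation site and 235 at Tsukuba, a second probe set read 115 in hypergravity, against 180.4 at the operation site and 250.3 at Tsukuba, and both put hypergravity below both controls. Of *ugt-50* all 3 probe sets put clinorotation and hypergravity below both controls, at -0.17, -0.54 and -0.38 (log2) in hypergravity, though the probe set used lay between them without scaling. Both probe sets of *ugt-48* had all treatments between the controls, though space flight in the probe set used lay above both, by 0.27 (log2), without scaling. A probe set shared by *ugt-22* and *Y43D4A.2*, which is not used in the counts, read 55.7 in space flight, 126 under clinorotation and 67.4 in hypergravity, against 36.97 at the operation site and 139.5 at Tsukuba, the same order of arrays as *ugt-22* itself. *ugt-46* and *ugt-50* were chosen because they have several probe sets.

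Genes of the steps before and after glycosylation were counted in the same way. In hypergravity the other enzyme families of detoxification had more genes below both controls than above after quantile or trimmed-mean scaling, beside the 32.7% of all genes below and 33.3% above. Of 28 glutathione S-transferase genes 15 were below and 4 above, with a median difference of -0.34 (log2). *gst-4*, a common reporter of the stress factor SKN-1, read 164 in hypergravity, against 332 at the operation site and 328 at Tsukuba, and *gst-6* read 169.9 in hypergravity, against 337 at the operation site and 393 at Tsukuba. Of 17 ABC exporter genes 9 were below and 3 above (median -0.31). The multidrug resistance gene *mrp-1* was at 256 in hypergravity, against 443 at the operation site and 342 at Tsukuba, between them without scaling. *mrp-4* was instead above both controls, at 307 in hypergravity, against 221 at the operation site and 233 at Tsukuba. Of 43 cytochrome P450 genes 21 were below and 11 above (median -0.26), although *cyp-33A1* was high at 359 in hypergravity, against 175 at the operation site and 135 at Tsukuba. Of 26 short-chain dehydrogenase genes 12 were below and 5 above (median -0.15). Without scaling the hypergravity medians were 0.0068 for glutathione S-transferases, -0.03 for ABC exporters, 0.11 for cytochromes P450 and 0.31 for short-chain dehydrogenases, beside 0.39 for all genes. The counts were then 7 below and 7 above for glutathione S-transferases, 2 below and 5 above for ABC exporters, 11 below and 17 above for cytochromes P450 and 2 below and 17 above for short-chain dehydrogenases. Over all genes 9.84% were then below and 66.4% above.

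In the other treatments the medians were given by the same rule. In space flight the medians were -0.15 for glutathione S-transferases, 0.04 for ABC exporters, 0.06 for cytochromes P450 and -0.05 for short-chain dehydrogenases, and under clinorotation -0.11, -0.06, -0.19 and -0.08 in that order. Unscaled, they were 0.49, 0.57, 0.59 and 0.54 in space flight, beside 0.62 for all genes. Under clinorotation they were then 0.13, 0.14, 0.12 and 0.26, beside 0.29 for all genes. Cytochromes P450 had 24 of 43 genes below both controls and 7 above under clinorotation, where 27.7% of all genes were below and 28.5% above. Without scaling, however, 10 were below and 14 above, where 6.65% and 65.3% of all genes were. *cyp-13B1* read 169 in space flight, 741 under clinorotation and 826 in hypergravity, against 324 at the operation site and 662 at Tsukuba, with space flight lowest and hypergravity highest, as in *ugt-28* and *ugt-33*. The sulfotransferase gene *ssu-1* was at the floor on all arrays, and the 3 genes of P450 reductase and cytochrome b5 had medians of -0.13 in space flight, 0.13 under clinorotation and -0.03 in hypergravity.

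**Figure D5:**
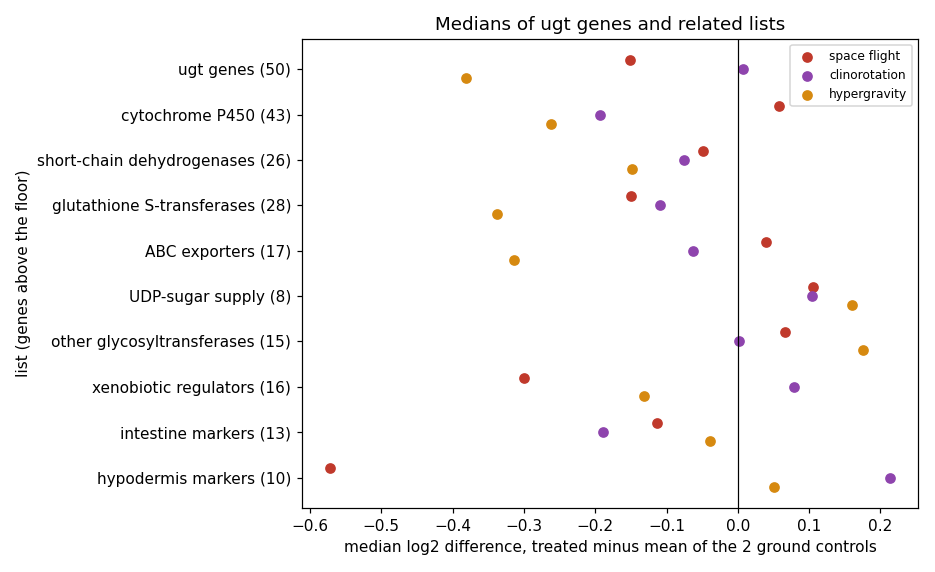
Median log2 difference of each treated array from the mean of the 2 ground controls, for the ugt genes and for 9 lists of related or marker genes, with the number of genes above the floor in brackets. In hypergravity the ugt genes, glutathione S-transferases, ABC exporters and cytochromes P450 have medians between -0.38 and -0.26. Without scaling they are between -0.03 and 0.11, beside 0.39 for all genes.

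Genes that supply UDP-sugars and other enzymes that use them were counted as well. Of 8 genes of UDP-sugar supply and transport, 6 were above and 1 below both controls in space flight, 7 and 1 under clinorotation, and 5 and 2 in hypergravity. The shares of all genes above both controls were 36.3%, 28.5% and 33.3% in the same order of treatments. *D1005.2*, the member farthest outside the controls, read 26.4 in space flight, 50.4 under clinorotation and 32.5 in hypergravity, against 48.4 at the operation site and 42.7 at Tsukuba, with space flight and hypergravity below both. *sqv-4*, the UDP-glucose dehydrogenase that makes UDP-glucuronic acid, read 675 in space flight, 629 under clinorotation and 831 in hypergravity, against 547 at the operation site and 557 at Tsukuba, above both controls on all treated arrays. Of 15 glycosyltransferase genes outside the family, 5 were above and 1 below both controls in space flight, 5 and 4 under clinorotation, and 8 and 3 in hypergravity, beside the same shares of all genes. The farthest outside was *rib-2*, an enzyme of heparan sulfate synthesis, at 229.6 in hypergravity, against 162 at the operation site and 161 at Tsukuba. Without scaling these 15 genes had 15 above and 0 below in space flight, 13 and 0 under clinorotation, and 11 and 0 in hypergravity. The 8 supply and transport genes then had 6 and 1, 7 and 0, and 7 and 1 in the same order. Over all genes 80.9% and 4.54%, 65.3% and 6.65%, and 66.4% and 9.84% lay there. Of 16 regulators of the xenobiotic response, 9 were below both controls in space flight and 2 above, where 29.4% of all genes were below and 36.3% above, with a median of -0.30. Without scaling 1 was below and 12 above, where 4.54% and 80.9% of all genes were. Their median was then 0.34, beside 0.62 for all genes. Among these *pha-4*, the forkhead factor of the pharynx and gut, read 79.98 in space flight, 139 under clinorotation and 164 in hypergravity, against 176 at the operation site and 142 at Tsukuba, and *ahr-1*, the aryl hydrocarbon receptor, read 38.2 in space flight, 51.3 under clinorotation and 55.7 in hypergravity, against 24.9 at the operation site and 31.7 at Tsukuba, where the operation-site value is the floor.

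Markers of the tissues that express the family were set beside these counts. Of 13 intestine markers above the floor, 5 were below both controls and 4 above in space flight, 7 and 0 under clinorotation, and 6 and 4 in hypergravity. Over all genes 29.4% were below and 36.3% above in space flight, 27.7% and 28.5% under clinorotation, and 32.7% and 33.3% in hypergravity. Without scaling the intestine markers had 0 below and 9 above in space flight, 3 and 5 under clinorotation, and 2 and 8 in hypergravity. The shares of all genes were then 4.54% and 80.9%, 6.65% and 65.3%, and 9.84% and 66.4% in the same order. The gut esterase gene *ges-1* read 369.9 in space flight, 153 under clinorotation and 145 in hypergravity, against 409 at the operation site and 277 at Tsukuba, and the gut phosphatase gene *pho-1* read 72.7 in space flight, 48.4 under clinorotation and 39.3 in hypergravity, against 84.99 at the operation site and 75.9 at Tsukuba, both lowest in hypergravity and low under clinorotation. The yolk protein gene *vit-6* was instead highest in hypergravity, at 5242 in space flight, 4181 under clinorotation and 8025 in hypergravity, against 5271 at the operation site and 4250.2 at Tsukuba. The order of arrays in *ges-1* is that of *ugt-44*. Of 10 hypodermis markers 8 were below both controls in space flight and 1 above, with summed signals of 13035 in space flight, 14334 under clinorotation and 13980.2 in hypergravity, against 17292 at the operation site and 15209 at Tsukuba. Their median differences from the control mean were -0.57 in space flight, 0.21 under clinorotation and 0.05 in hypergravity. Without scaling 3 of them were below and 5 above in space flight, where 4.54% and 80.9% of all genes were. None of the hypodermis markers was at the floor on all arrays. In space flight the 8 of 8 body wall muscle markers below both controls, with 0 above, stood beside 4 of 8 neuron markers below and 0 above, and 12 of 13 oocyte and germ line markers above and 0 below. These counts depend on the scaling. Without it 7 of 8 body wall muscle markers and 6 of 8 neuron markers were above both controls, and 0 of either below. All 13 oocyte and germ line markers were then above, beside 80.9% of all genes above and 4.54% below. After scaling, median differences in space flight were -0.28 for body wall muscle, 0.39 for oocytes and germ line, -0.25 for neurons and -0.20 for excretory cells and glia. In hypergravity they were -0.12 for body wall muscle, 0.35 for oocytes and germ line, -0.57 for neurons and 0.08 for excretory cells and glia. Without scaling the medians in space flight were 0.25 for body wall muscle, 0.98 for oocytes and germ line, 0.40 for neurons and 0.38 for excretory cells and glia, and in hypergravity 0.32 for body wall muscle, 0.82 for oocytes and germ line, -0.19 for neurons and 0.51 for excretory cells and glia. The medians of all genes were then 0.62 in space flight and 0.39 in hypergravity. The part of these tissues in the ugt values was not tested.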

How the data were processed

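Whole worms were hybridised to 5 Affymetrix arrays, 1 per group, from 15 µg of total RNA, per the labels' protocols. The values are the deposited linear signal intensity of 22548 probe sets, and how the authors summarised the probes is not stated by the labels. Of these probe sets 20766 had a single symbol in GEO's platform annotation, 887 had several and 895 none, and all 64 ugt symbols matched RefSeq (WBcel235). The 5 arrays were quantile normalised on the log2 scale, floored at the 40th percentile, and genes whose mean log2 signal was above the floor were fitted with limma 3.58.1 (R 4.3.3) with an intensity trend and Benjamini-Hochberg adjustment. Each treated array was set against both controls, and a gene was above or below both where it lay outside their range. The number of arrays limits the precision. The members and the lists of other genes were chosen with earlier results of these data known. The ugt genes named were, per treatment and direction, up to 6 farthest outside the nearer control, up to 6 per direction farthest apart between the controls, and those outside both controls the same way in all treatments or at least 2-fold in any. A further criterion, protein identity, could not be applied because protein sequences were not used here. Of each other list, up to 4 members farthest outside the controls could be named. None of the listed genes of glycoside removal was found on the array under its symbol. Alternatives were no scaling, trimmed-mean scaling, a floor at the 20th percentile, a pseudocount of 16, the mean over probe sets, single-transcript probe sets, no filter, no intensity trend and leaving out each control. The scaling of the other lists was varied after seeing the data. The fit was also run on simulated data, of which no outcome is reported here.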

Additional observations from a re-analysis of the deposited data

How the results depend on the processing

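With no scaling, 31 ugt genes lay above and 8 below both controls in space flight (median 0.416), 30 and 5 under clinorotation (median 0.261), and 15 and 13 in hypergravity (median -0.0278). Over all genes 80.9% and 4.54%, 65.3% and 6.65%, and 66.4% and 9.84% lay there. Trimmed-mean scaling gave 30 below and 6 above in hypergravity, where 35.5% and 30.5% of all genes lay. With the floor at the 20th percentile, 14 of 61 were above in hypergravity, where 32.6% of all genes were. With single-transcript probe sets 5 of 39 were above in space flight, where 35.9% of all genes were. Without the filter on low signals limma called 191 genes in space flight, 151 under clinorotation and 267 in hypergravity, of which 180, 147 and 258 had both controls at the floor, so that their control spread is 0, and the hypergravity median of the ugt genes was -0.186. The single ugt gene among them, *ugt-53*, was called in space flight and under clinorotation. Against a lone control, without replicate 1 or without replicate 2 of the ground controls, 16 to 23 ugt genes were above and 27 to 32 below in space flight, 22 to 27 above and 23 to 28 below under clinorotation, and 15 above and 34 to 35 below in hypergravity. Of all genes 50.8% to 54.2% were above and 45.3% to 47.5% below in space flight. Under clinorotation 48.6% to 50.7% were above and 48% to 51% below, near the shares of the family. In hypergravity 49.3% to 49.8% were above and 49% to 50.3% below. The family's median was then -0.116 to -0.0929 in space flight, -0.105 to 0.0267 under clinorotation and -0.455 to -0.327 in hypergravity. limma was not run against a lone control, which leaves no residual degree of freedom, and without the intensity trend it called 0 genes. Of 105 differences of named ugt genes from the control mean, 19 changed sign with no scaling, 5 with trimmed-mean scaling, 14 without replicate 1 of the ground controls and 18 without replicate 2. No paired analysis was possible because each treatment has a single array.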
